A study of Mus musculus with 8 samples.

Results

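Acyl-CoA thioesterases (Acot genes) form the subject here. The members were chosen by name as Acot1, Acot2, Acot3, Acot4, Acot5, Acot6, Acot7, Acot9, Acot11 and Acot13, and all 10 were found, among 23100 loci in the gene table and with 13 of the 35754 transcripts in the isoform table. Ventricular RNA came from 8 mice aged 4.5 months, 4 per genotype. All of them carried floxed Sox5 and Sox6 (Sox5fl/fl, Sox6fl/fl), which encode SoxD transcription factors. The double knockout (DKO) mice also carried aMHC-Cre, a recombinase transgene driven by a promoter of cardiomyocytes, and the control (Ctrl) mice were negative for it, so an effect of Cre and an effect of the deletion cannot be told apart. Cre acts in cardiomyocytes, and the other cells of the ventricle keep the floxed alleles. Although pressure overload appears in the title of the series, no operation is labelled for any of these mice.

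Fatty acids are activated by acyl-CoA synthetases, which join them to coenzyme A, and can then be stored, signalled with or oxidised. Acyl-CoA thioesterases run the opposite reaction and release the free fatty acid and coenzyme A, so they are among the enzymes that affect how much acyl-CoA a compartment holds. In the heart, which burns mainly fatty acids, Acot1 in the cytosol and Acot2 in the mitochondrial matrix are known as targets of the nuclear receptor PPAR-alpha. Type I enzymes (Acot1 to Acot6) share an alpha/beta-hydrolase fold and lie side by side in the mouse genome, while type II enzymes (Acot7, Acot9, Acot11 and Acot13) have a hot dog fold and lie on other chromosomes.

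Acot1 and Acot2 are the pair on which the main result turns, and their sequences show how far reads can tell them apart. The coding sequences have 1260 bases in Acot1 and 1362 in Acot2. Over the 1239 coding bases that align they were 95.2% identical, with 59 mismatches and a longest identical run of 273 bases. Ends without a partner are left out of that share. The stretch of 90 aligned coding bases in which they differ most is printed from the GENCODE M21 transcripts, 5′ to 3′, with the 14 mismatched bases in capitals. It covers coding bases 797 to 886 of Acot1 and 920 to 1009 of Acot2, counted from the first base of the start codon.
Acot1: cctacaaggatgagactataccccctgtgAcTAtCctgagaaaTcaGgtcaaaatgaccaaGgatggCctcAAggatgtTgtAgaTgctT
Acot2: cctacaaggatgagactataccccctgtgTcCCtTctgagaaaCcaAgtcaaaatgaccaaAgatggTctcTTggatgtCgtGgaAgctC
Of all windows of 50 bases in the Acot1 transcript, 33.6% were also found in a transcript of another gene, and 23.7% in that of Acot2. With windows of 100 bases the shares were 21.9% and 16.5%. These shares are over the 2272 bases of the GENCODE transcript, while the deposited isoform of Acot1 is 1558 bases long. If that isoform is a part of the longer transcript and held all shared windows, at most 49.6% of its 50-base windows would be shared with another gene and 34.9% with Acot2. For Acot2, 27.7% of the 50-base windows were shared with another gene, and 24.5% with Acot1. The labels and file headers state neither the read length nor how shared reads were divided, so the single values of Acot1 and Acot2 are uncertain. Acot2 had 4.59 times the FPKM of Acot1 in Ctrl and 7.18 times in DKO, so a given number of misassigned reads is a larger part of the Acot1 value.

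The stretches just before the transcription starts of the same pair are printed because they lie next to a called and an uncalled near-copy. They are the 250 bases before each start from RefSeq in the GRCm38.p6 build, not the mm9 build of the deposited tables, at chr12:84009252-84009501 for Acot1 and chr12:83987611-83987860 for Acot2, both on the plus strand. Capitals mark CCAAT on either strand, the only one of 4 searched motifs that either stretch holds.
Acot1 promoter: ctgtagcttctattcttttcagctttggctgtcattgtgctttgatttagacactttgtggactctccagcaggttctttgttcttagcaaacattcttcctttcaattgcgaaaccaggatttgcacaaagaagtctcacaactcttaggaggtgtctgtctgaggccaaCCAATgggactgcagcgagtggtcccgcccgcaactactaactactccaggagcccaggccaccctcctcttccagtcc
Acot2 promoter: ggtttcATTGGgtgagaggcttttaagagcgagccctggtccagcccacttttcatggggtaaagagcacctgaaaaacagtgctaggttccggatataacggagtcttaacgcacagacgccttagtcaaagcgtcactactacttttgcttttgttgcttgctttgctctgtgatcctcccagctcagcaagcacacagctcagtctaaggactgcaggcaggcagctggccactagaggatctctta
CCAAT, the binding motif of NF-Y, stood 79 bases before the start of Acot1 on the plus strand and 244 bases before that of Acot2 on the minus strand, counted to the first base of the match on the plus strand. It occurred in 33.8% of 32851 promoters of this length. RefSeq promoters were matched for 8 of the 10 members, and 7 of these had a CCAAT; Acot6 and Acot13 had no entry. The nuclear receptor hexamer AGGTCA was found before Acot4 and Acot5, against 14.0% of all promoters, and the Sox motif AACAAT before Acot9 alone, against 9.42%. The direct repeat of that hexamer with 1 base between (the DR1 element that PPARs are known to bind) was found before no member and in 0.0335% of all promoters. This exact match is too rare for its absence before the members to carry information. Each motif was searched on both strands.

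Levels are the authors' FPKM values (fragments per kilobase of transcript, scaled to the mapped fragments), 1 pooled value per genotype with no spread between animals, and the depth is unknown. FPKM is per length, so members are set side by side. That comparison depends on the listed transcript lengths and on how shared reads were divided. A gene counts as called when the authors' Cuffdiff test gave it a q of at most 0.05. Cuffdiff tested 12133 genes, among them 7 members, and left out Acot3, Acot4 and Acot5, the members with the lowest levels.

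Ventricles of DKO mice had less Acot1 mRNA, at 3.97 FPKM against 7.36 in Ctrl, a fall of 1.85-fold and the only called change in the family. Acot2, the mitochondrial near-copy, was at 28.5 against 33.8 FPKM and was not called. Acot13, the most abundant member by far, was at 617 against 639 FPKM. Acot7 and Acot11 were at slightly lower values in DKO and Acot6 and Acot9 at slightly higher ones, none of them called. So 1 of 7 tested members was called lower and 0 higher, while 3.06% of all tested genes were called lower, 4.3% higher and 7.36% in either direction. The log2 ratios of DKO over Ctrl ran from -0.89 to 0.12 in the tested members with a median of -0.23, and 5 of 7 were below 0. Over all tested genes the median was -0.0042 and 51.0% were below 0.

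**Figure D1:**
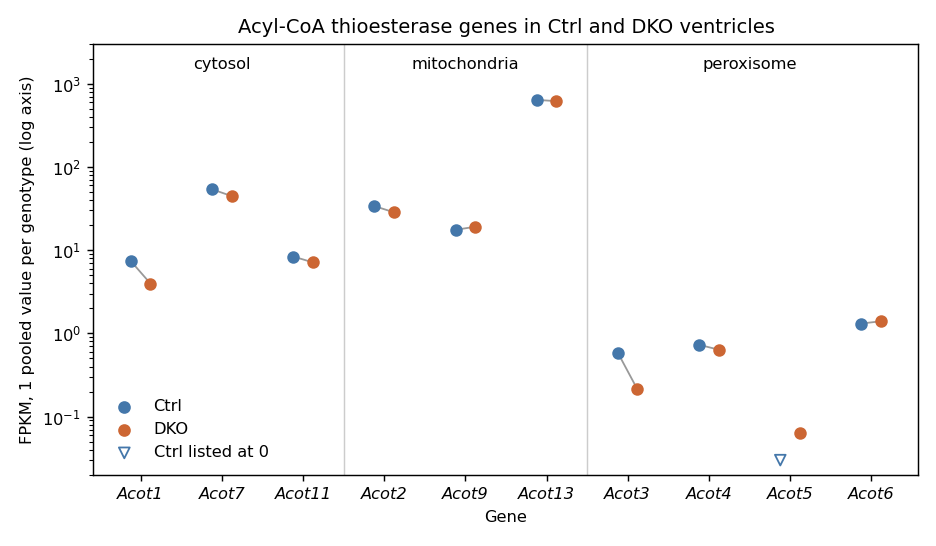
FPKM of each thioesterase gene (log axis) in Ctrl (blue) and DKO (orange), 1 pooled value per genotype with no error, grouped by the compartment each enzyme is known for. Acot13 lies at 639 and 617 FPKM, Acot1 at 7.36 and 3.97, and Acot5 was listed at 0 in Ctrl (open triangle, drawn at the foot of the axis).

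The order of levels in Ctrl was Acot13 (639 FPKM), Acot7 (53.8), Acot2 (33.8), Acot9 (17.6), Acot11 (8.38), Acot1 (7.36), Acot6 (1.31), Acot4 (0.730), Acot3 (0.582) and Acot5 (listed at 0). In DKO the order was the same. With no value per animal, it cannot be said which neighbours in this order differ beyond the spread between animals. Acot13 alone made up 83.8% of the summed FPKM of the family in Ctrl and 85.4% in DKO, and Acot1 0.965% and 0.550%. By Ctrl FPKM, Acot13 ranked 153 of the 12133 tested genes, Acot7 1543, Acot2 2389 and Acot1 7169. The summed FPKM of all members was 763 in Ctrl and 723 in DKO, a log2 ratio of -0.08, and without Acot13 it was 124 and 106, a log2 ratio of -0.22.

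Among the enzymes of the cytosol, Acot1 hydrolyses long-chain acyl-CoA. It is gene XLOC_004272 in the deposited table and lies in mm9 on chromosome 12 at 85350452 to 85358619. Its level fell by 46.1%, a log2 ratio of -0.89, for which the authors' deposited table gives p = 5e-05 and q = 0.00158. That p is the smallest in the table and is shared by 385 genes, so it does not rank Acot1 among them. By log2 ratio itself Acot1 stood at place 46 from the lowest among the tested genes listed above 0 in both genotypes. Acot1 has a single listed transcript, and as given above it shares sequence with Acot2.

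Acot7, a cytosolic long-chain enzyme that is best known from brain, lies on chromosome 4 at 151552209 to 151645964. It stood at 44.7 FPKM in DKO against 53.8 in Ctrl (log2 ratio -0.27), and the authors' deposited table gives p = 0.00805 and q = 0.0886. Acot11, also called Them1 and known for limiting fat burning in brown adipose tissue, carries a lipid-binding START domain. It stood at 7.14 FPKM in DKO against 8.38 in Ctrl (log2 ratio -0.23), with p = 0.0271 and q = 0.206 in the authors' deposited table. Its listed locus on chromosome 4, at 106406520 to 106472436, is shared with Fam151a on the opposite strand, and 19.0% of the 50-base windows of Acot11 match Fam151a on either strand. Fam151a itself was listed at 0.0484 FPKM in DKO and at 0 in Ctrl, and whether the counting used strand is not stated. By compartment, the summed FPKM was 55.8 in DKO and 69.5 in Ctrl over the 3 cytosolic members, 665 and 691 over the 3 mitochondrial ones and 2.31 and 2.63 over the 4 peroxisomal ones.

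Among the mitochondrial enzymes, Acot2 cleaves long-chain acyl-CoA in the matrix. It lies 15.6 kb upstream of Acot1, on chromosome 12 at 85328811 to 85334825, and its log2 ratio was -0.25 (p = 0.0145 and q = 0.134 in the authors' deposited table). The log2 difference between Acot1 and Acot2 is 0.64, and no test of that difference could be run without values per animal. Acot9, which acts on acyl-CoA of short and long chains in the matrix, lies on chromosome X at 151697043 to 151732050. It stood at 19.1 FPKM in DKO against 17.6 in Ctrl (log2 ratio 0.12, and q = 0.754 in the authors' deposited table). Its retrogene copy Acot10 is 97.2% identical over 1320 coding bases and shares 20.2% of the 50-base windows of Acot9 but 0.968% of the 100-base windows. Acot10 was at 0.0453 and 0.0919 FPKM in DKO and Ctrl and was not tested. Acot13, also called Them2, associates with mitochondria and with phosphatidylcholine transfer protein. It lies on chromosome 13 at 24909824 to 24923375, and its log2 ratio was -0.05 (q = 0.904 in the authors' deposited table). None of its 50-base windows, and none of those of Acot7, was found in another gene.

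The 4 peroxisomal members were all at low levels. Acot8, a peroxisomal thioesterase outside the members, was tested at 8.61 FPKM in DKO against 8.71 in Ctrl and was not called. Acot6, known for branched-chain substrates, was the only one of these members tested, at 1.40 FPKM in DKO against 1.31 in Ctrl (log2 ratio 0.09, and q = 0.949 in the authors' deposited table). Acot4, which hydrolyses succinyl-CoA and other dicarboxylyl-CoAs, was at 0.637 and 0.730 FPKM. Acot3, a long-chain enzyme, was at 0.212 and 0.582 FPKM, a log2 ratio of -1.45, and -0.38 on the log2(FPKM + 1) scale. Acot5, a medium-chain enzyme, had 0.0635 FPKM in DKO and was listed at 0 in Ctrl. Cuffdiff did not test these 3 low genes, so no change is stated for them. Coding identity between pairs of the type I genes other than Acot1 and Acot2 ran from 73.9% to 85.4%.

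Of the 7 tested members, 4 had an unadjusted p under 0.05, namely Acot1, Acot7, Acot2 and Acot11, all with a log2 ratio below 0. Over all tested genes, 7.76% had such a p and a ratio below 0, and 16.5% in either direction. Of these 4 members, Acot1 alone had a q under the threshold. Acot1 and Acot2 share sequence, as given above, so their values are not fully separate. The 15 tested cardiomyocyte markers also all had a log2 ratio below 0, with a median of -0.21. Some but not all of these markers had an unadjusted p under 0.05 too. The same held for genes of mitochondrial beta-oxidation, so such values are not particular to the thioesterases.

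**Figure D2:**
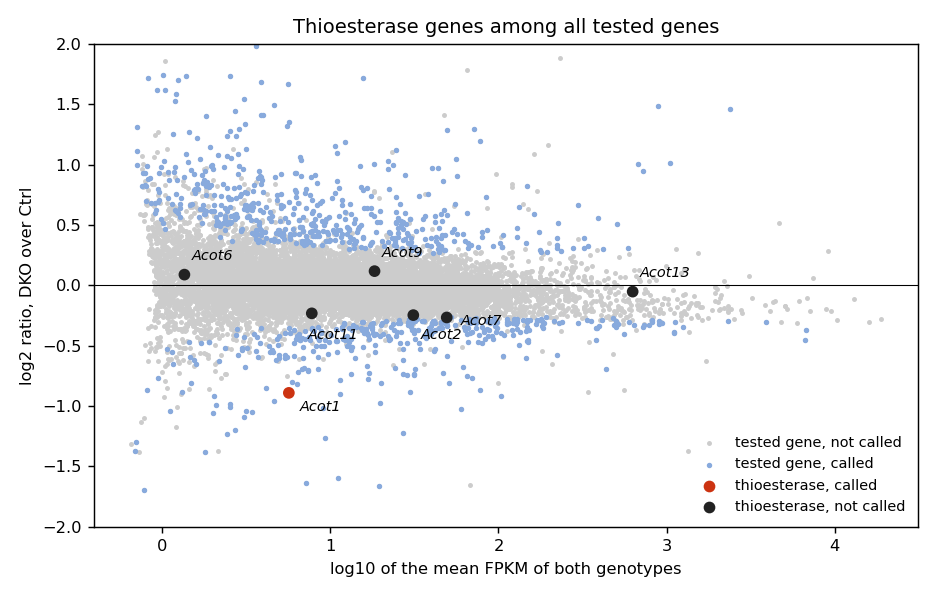
log2 ratio of DKO over Ctrl against the log10 of the mean FPKM for all tested genes (grey, called genes in blue), with the 7 tested thioesterases marked. Acot1 lies at -0.89 among the called lower genes, and the other 6 lie between -0.27 and 0.12; 28 genes past a log2 of 2 in either direction fall outside the axis.

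The type I genes stand in a row on chromosome 12 over 122 kb, in the order Acot2, Acot1, Acot4, Acot3, Acot5 and Acot6. To see whether the loci around them differed too, every locus within 200 kb was taken. None of the 6 tested neighbours was called, and their log2 ratios lay between -0.16 and 0.10. Of all tested genes 7.36% were called in either direction, so 6 loci are too few for the absence of a call to set them apart. Upstream, Papln had 5.32 FPKM in DKO against 5.24 in Ctrl, Numb, an inhibitor of Notch, at 15.1 and 14.7, and 2410016O06Rik at 2.78 and 2.71. Downstream, Dnalc1 was at 2.69 and 2.64 FPKM, C130039O16Rik at 5.66 and 5.27 and Ptgr2, a prostaglandin reductase, at 156 and 174. Pnma1, at 0.218 and 0.209 FPKM, was not tested. Among the tested loci of this stretch other than Acot1, the values of the 2 groups differed by 1.19-fold at most, in Acot2.

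**Figure D3:**
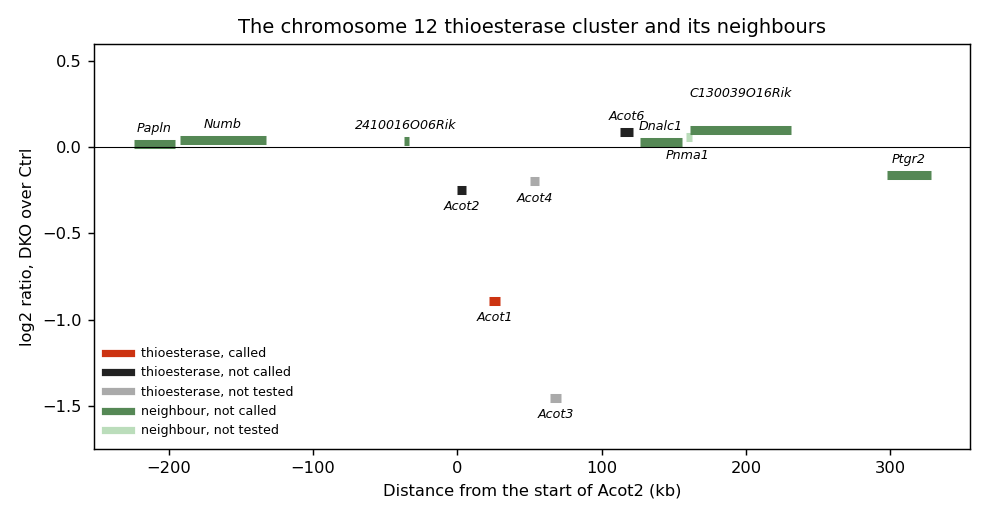
log2 ratio of DKO over Ctrl of the thioesterase cluster and the loci within 200 kb, against distance from the start of Acot2 in kb; bars span each listed locus and colours mark called, uncalled and untested genes. Acot1 at -0.89 is the only called locus, the untested Acot3 lies at -1.45, the others lie between -0.25 and 0.10, and Acot5, listed at 0 in Ctrl, is not drawn.

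At the level of transcripts, 8 members had 1 listed isoform, so their isoform values repeat the gene values. Acot1 stayed called as an isoform (q = 0.00312 in the authors' deposited table), as a start site group (q = 0.00223 in the authors' deposited table) and as a coding sequence (q = 0.00226 in the authors' deposited table). Of all tested isoforms 1.12% were called lower, of start site groups 1.99% and of coding sequences 1.66%. Acot7 had 3 transcripts with 3 starts. The most abundant one, of 1494 bases, was at 27.2 FPKM in DKO against 37.1 in Ctrl (log2 ratio -0.45, and p = 0.0084 and q = 0.169 in the authors' deposited table). The transcript of 1505 bases was at 12.46 and 11.95 FPKM, and that of 1367 bases at 5.02 and 4.71, with log2 ratios of 0.06 and 0.09. The first transcript made up 60.9% of the Acot7 FPKM in DKO and 69.0% in Ctrl. Its difference from the other transcripts was not tested, and transcripts that overlap are separated only by the authors' model. In the GRCm38 annotation the transcript of 1505 bases starts 8 kb and that of 1367 bases 21.7 kb downstream of the first. Acot13 had a known transcript of 686 bases at 374 and 393 FPKM and a variant of 573 bases, not in the reference annotation, at 242 and 247 FPKM in DKO and Ctrl, with log2 ratios of -0.07 and -0.02.

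**Figure D4:**
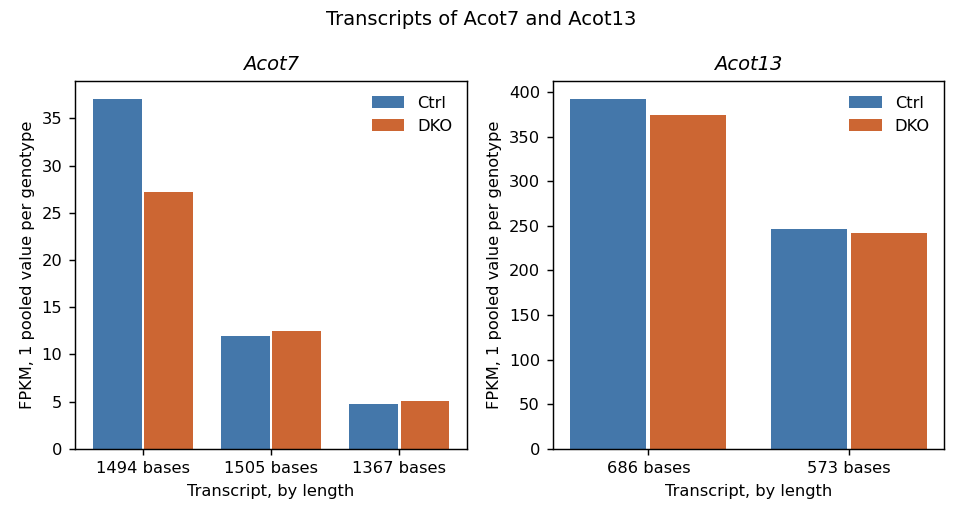
FPKM of the listed transcripts of Acot7 (left) and Acot13 (right) in Ctrl (blue) and DKO (orange), 1 pooled value per genotype with no error, named by transcript length in bases. The 1494-base transcript of Acot7 is at 37.1 in Ctrl and 27.2 in DKO, and the other transcripts of both genes differ less in ratio.

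Genes that make, move and consume acyl-CoA were then counted to place the thioesterases, from lists chosen with earlier results known. In these counts lower and higher mean called. For comparison, 3.06% of all tested genes were called lower and 4.3% higher, and 51.0% had a log2 ratio below 0. Over the 10 lists together, 25 of 127 tested genes were called lower and 4 higher, and the only one with a lower log2 ratio than Acot1 was Acsm5, a mitochondrial medium-chain acyl-CoA synthetase, at 1.66 against 3.80 FPKM (log2 -1.20). Among the acyl-CoA synthetases, which run the reaction opposite to the thioesterases, 4 of 12 were lower and 1 was higher, with 11 of 12 log2 ratios below 0 and a median of -0.15. Besides Acsm5 these were Acsl6 (5.81 against 7.85 FPKM), Acss1, which activates acetate in mitochondria (132 against 171), and Acsl1, the main long-chain synthetase of the heart (333 against 426). The higher gene was Acsf2, a mitochondrial synthetase, at 15.6 against 12.3 FPKM (log2 0.35, and q = 0.0196 in the authors' deposited table). The list of other thioesterases held no called gene of 4 tested, all 4 below 0. Highest in it were the genes of lysosomal palmitoyl-protein thioesterases, Ppt1 at 46.9 against 48.0 FPKM and Ppt2 at 30.74 against 34.02.

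In the genes of coenzyme A synthesis and breakdown, 3 of 14 were lower and 12 had a log2 ratio below 0. The called ones were Dcakd (21.4 against 35.9 FPKM), Pank1, a pantothenate kinase of the first step of synthesis (23.2 against 28.7), and Nudt7, a peroxisomal coenzyme A diphosphatase (77.9 against 94.9). Mitochondrial beta-oxidation had 9 of 21 lower, while all 21 log2 ratios were below 0 and their median was -0.28. The called genes included Eci1, Hadh, Etfb (958 against 1254 FPKM) and Acadvl (634 against 804). Peroxisomal beta-oxidation had 2 of 14 lower, with 10 ratios below 0, namely Ech1 (1106 against 1405 FPKM) and Abcd3, a fatty acyl-CoA transporter (61.8 against 76.0). The carnitine shuttle had 1 of 10 lower, with 7 ratios below 0, namely Mlycd, which removes the shuttle inhibitor malonyl-CoA (62.34 against 76.96 FPKM). Fatty acid uptake and binding held no called gene of 13, with 10 ratios below 0, Fabp3 at 5875 against 6422 FPKM and Lpl at 1462 against 1782. Triglyceride storage and lipolysis had 3 of 16 lower, with 11 ratios below 0, namely Fitm1 (126 against 175 FPKM), G0s2, an inhibitor of triglyceride lipase (70.5 against 95.8), and the lipid droplet protein gene Plin5 (66.1 against 81.9).

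Targets of PPAR-alpha other than thioesterases went both ways, with 4 of 19 lower and 3 higher, 11 ratios below 0 and a median log2 of -0.12. Several of these targets also stand in the lists above, among them all 4 lower ones and none of the 3 higher ones. The higher ones were Ucp2, an inner membrane carrier of mitochondria (31.4 against 15.7 FPKM), Angptl4 and Pdk4, which blocks pyruvate oxidation (249 against 197). Of the nuclear receptors and coactivators, 3 of 18 were lower, with 13 ratios below 0, namely Ppara itself (20.1 against 25.6 FPKM), its partner gene Rxrg (48.9 against 61.4) and Klf15 (24.0 against 33.4). The genes closest to Acot1 in log2 ratio, among 4580 tested genes with a Ctrl FPKM within 2-fold of it, were Arrdc2 (2.94 against 5.30 FPKM), Ssbp2 (3.13 against 6.08) and Exoc2 (4.59 against 8.08). That likeness rests on 2 pooled values per gene.

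Markers of cell types were counted in the same way, beside the same 3.06% of all tested genes called lower and 4.3% higher. All 15 cardiomyocyte markers were present, at 116 to 20639 FPKM in Ctrl, with Myl2 and Mb the highest. Each had a log2 ratio below 0, the median was -0.21 and none was called; their summed FPKM was 93283 in DKO and 109666 in Ctrl. The log2 ratio minus that median was -0.68 for Acot1, -0.04 for Acot2, -0.06 for Acot7, -0.02 for Acot11, 0.16 for Acot13, 0.30 for Acot6 and 0.33 for Acot9. Fibroblast markers were higher in 8 of 10 (summed FPKM 833 against 637), led by Postn, Mfap5, Col3a1 and Col1a2. Macrophage markers were higher in 9 of 11 (421 against 273), led by Mpeg1, Lyz2, Csf1r and Emr1. Endothelial markers, among them Eng and Cdh5, held no called gene of 9 (430 against 457). Adipocyte markers, of which Cfd and Cidec had the most FPKM, were at or near 0, with all 6 at a summed 0.339 FPKM in DKO and 0.121 in Ctrl, and 1 of 3 tested neural and Schwann cell markers, Uchl1, was higher. In whole ventricle, fewer cells of a type and less RNA per cell cannot be told apart, and the part of these shifts in the thioesterase values was not tested. Sox6 was at 1.69 against 3.39 FPKM and was called lower (log2 ratio -1.01, and q = 0.00158 in the authors' deposited table). Sox5 was at 0.497 FPKM in DKO against 0.369 in Ctrl. Cuffdiff did not test it, so its loss cannot be read from these low values.

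**Figure D5:**
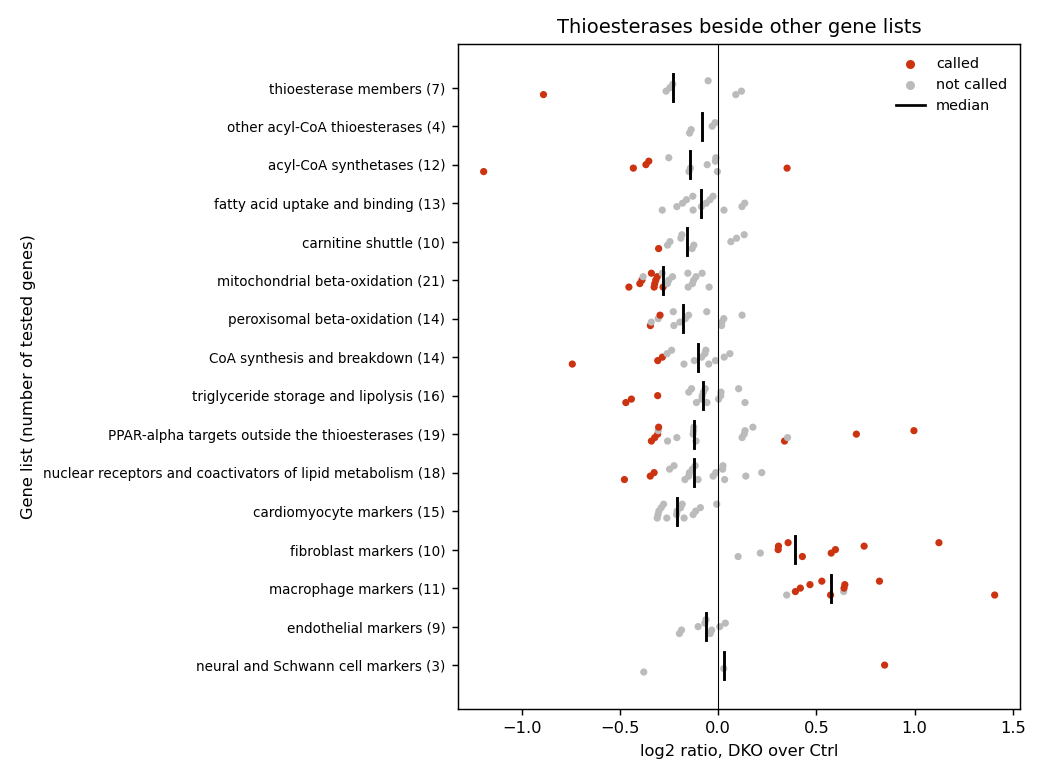
log2 ratio of DKO over Ctrl of each tested gene (point, called in red) by list, with the median as a black line and the number of tested genes in brackets; adipocyte markers had no tested gene. The thioesterases have a median of -0.23 with Acot1 at -0.89, beside medians of -0.28 for mitochondrial beta-oxidation and -0.21 for cardiomyocyte markers.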

How the data were processed

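RNA from 8 ventricle samples was sequenced single-end with a TruSeq kit, per the labels' protocols. Per the submitters' processing notes, the authors used TopHat2 2.0.9, Cufflinks 2.1.1 and Cuffdiff 2.1.1 with mm9; annotation, settings and scaling are not stated there. Per the file headers, the 4 deposited tables used (genes, isoforms, start site groups, coding sequences) hold 1 FPKM value for each genotype. The p-values and q-values are those of the authors' Cuffdiff comparison, per the file headers, and no test across animals was possible. Log2 ratios were recomputed as DKO over Ctrl, with starts counted from 1. Counting was checked on tested genes given assigned log2 ratios and q-values, which checks the arithmetic alone. Sequence windows and coding alignments used GENCODE M21 transcripts. The members and the 17 lists were chosen with earlier results of these data known. Named genes were all members, all neighbours, up to 4 called genes per list with the largest change or, with no call, the 2 with the highest FPKM, and the 3 genes nearest to Acot1. Acsf2, Acot8, Acot10, Fam151a, Sox5 and Sox6 fall outside that rule and were named after their values were seen. Computations used Python 3.11.15, pandas 2.3.3, numpy 2.4.6, matplotlib 3.10.9 and Biopython 1.88.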

Additional observations from a re-analysis of the deposited data

How the results depend on the processing

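The count of 1 called member was again 1 at a q under 0.01, with a fold of at least 1.3, with an FPKM minimum of 1 in each group, and in the isoform, start site and coding sequence tables. Acot1 has 1 transcript with the same values in all 4 tables, so those tables and the isoform and coding sequence ratios repeat the gene value by construction. Its log2 ratio was -0.75 with 1 FPKM added, -0.87 with 0.1 added and -0.89 after rescaling to the median gene. Among the other lists, a fold of at least 1.3 left 2 lower synthetases, 3 lower genes of mitochondrial beta-oxidation, 1 of coenzyme A metabolism, 1 nuclear receptor or coactivator and 5 higher fibroblast markers. It left 0 higher synthetases and 0 lower genes of the carnitine shuttle, peroxisomal beta-oxidation and the PPAR-alpha targets. A q under 0.01 left 3 lower genes of mitochondrial beta-oxidation, 1 of coenzyme A metabolism, and 0 in the same 4 counts. The higher PPAR-alpha targets went from 3 to 2 at either threshold, so only higher calls were left in that list. Both thresholds keep a part of the calls by construction. No paired analysis was possible because the deposited tables hold 1 pooled value per genotype, and no animal could be left out for the same reason. The depth is unknown, which limits what can be said of Acot3, Acot4 and Acot5.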
